A study of Mus musculus with 8 samples.

Results

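The 10 genes described here code for the machinery that makes and reads phosphatidylinositol 3-phosphate (PI3P) at the start of autophagy. They were *Pik3c3*, *Pik3r4*, *Becn1*, *Atg14*, *Uvrag*, *Ambra1*, *Nrbf2*, *Wipi1*, *Wipi2* and *Bcas3*. Members were found by their symbol in the deposited table of 22206 probe sets, and each of the 10 matched exactly 1 probe set. A probe set is the group of short probes that reports 1 gene on the array. The arrays read RNA of the gastrocnemius (GAS), a calf muscle, from male mice of the C57/Bl6j background, 14 weeks old per the labels, taken 3 weeks after an adeno-associated virus (AAV) of serotype 1 had been injected into the muscle. The MYTHO group received AAV sh-RNA MYTHO, a short hairpin RNA against the product of D230025D16Rik (*Mytho*), and the scrmb group received AAV sh-RNA scrmb, a scrambled hairpin, both driven by the U6 promoter. Each group held 4 muscles, and the scrambled virus went into the leg opposite the MYTHO virus, so 4 animals, called A to D here, gave 1 muscle to each group. Both groups thus carried a virus. The U6 promoter is active in most cell types, and the MYTHO virus was always given in the right leg, so hairpin and side of the body cannot be told apart.

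In autophagy, a double membrane called the phagophore grows around cargo and closes into an autophagosome, which then fuses with a lysosome. The phagophore starts at a membrane patch rich in PI3P, which the class III phosphatidylinositol 3-kinase makes. This kinase works as a complex: PIK3C3 (VPS34) is the lipid kinase, PIK3R4 (VPS15) its regulatory partner and beclin 1, the product of *Becn1*, a scaffold. ATG14 or UVRAG completes it, ATG14 for autophagy and UVRAG mainly for endosomes. WIPI1 and WIPI2 are propeller-shaped proteins that bind PI3P, and BCAS3 forms a complex with MYTHO itself that associates with the phagophore. In skeletal muscle, autophagy clears damaged organelles and supplies amino acids in fasting.

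After 3 weeks of MYTHO-KD (knockdown), 3 of the 10 genes were higher than in scrmb muscle at an unadjusted limma p under 0.05 and none was lower. *Becn1*, *Wipi1* and *Bcas3* were each higher by 0.47 on the log2 scale, a 1.39-fold, 1.38-fold and 1.38-fold difference. Of all probe sets, 4.81% were higher and 7.58% lower by the same rule, 12.4% in all. The same 3 were the members with a log2 fold change of 0.4 or more, a size that 8.65% of all probe sets reached. After Benjamini-Hochberg adjustment over all probe sets none of the 10 passed, and the limma adjusted p ran from 0.354 to 0.990, whereas 0.027% of all probe sets passed. The median log2 fold change of the 10 was 0.05, beside a median of -0.005 over all probe sets, and 7 of the 10 values were above 0, as were 49.3% of all. Scaling moved the balance over all probe sets: 38.8% of those with an unadjusted p under 0.05 were higher in MYTHO muscle, 45.7% after quantile normalization and 49.0% after median centring of each array, while the 3 genes were higher under all 3 scalings. Other alternatives lowered the count of 3: it was 2 with animal as a fixed block, 1 without any single MYTHO array, and 0 without scrmb B, scrmb C, both arrays of animal B or both of animal C.

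**Figure D1:**
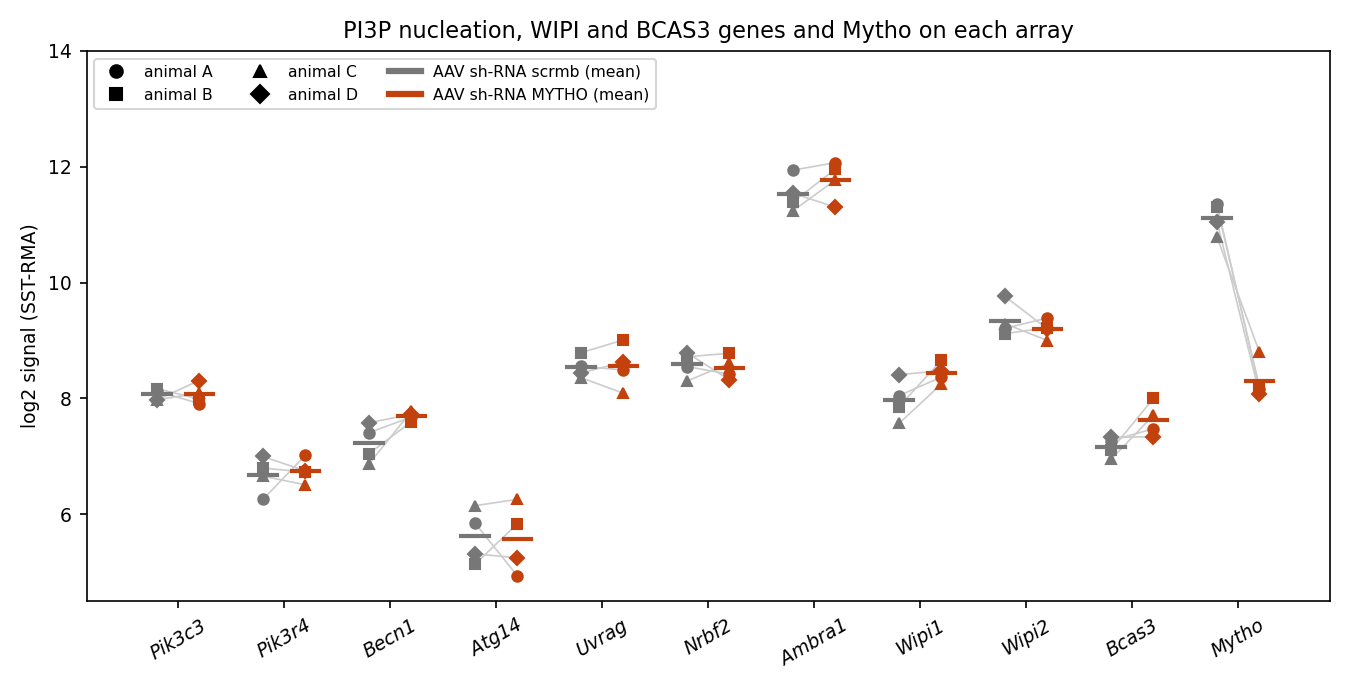
Log2 signal of each of the 10 genes and of *Mytho* on the 8 arrays, with scrmb in grey, MYTHO in orange, a marker for each animal, thin lines joining the legs of an animal and bars at the group means. The scrmb and MYTHO points of *Becn1* and *Bcas3* do not overlap, those of the other 8 genes do, and *Mytho* falls from a mean of 11.12 to 8.31.

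Array medians lay between 6.39 and 6.47. The first principal component, with 28.2% of the variance, placed the scrmb arrays of animals A to C between -45.4 and -25.7, scrmb D at 3.3 and the MYTHO arrays between 11.7 and 40.4. The targeted gene checked the labels. *Mytho*, listed as D230025D16Rik (Entrez gene 234678), read 11.35, 11.31, 10.78 and 11.05 in scrmb and 8.16, 8.20, 8.80 and 8.08 in MYTHO muscle. It fell by 2.81 on the log2 scale (standard error 0.21, limma adjusted p 0.00044), to 14.2% of the scrmb signal. The muscle markers *Ckm*, *Acta1*, *Mb*, *Des*, *Tnnt3* and *Actn3* had a mean log2 signal of at least 18.92 on every array, near the ceiling of 19.93.

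The kinase itself came first. *Pik3c3* had log2 signals of 8.13, 8.17, 7.98 and 7.98 in scrmb and of 7.91, 7.99, 8.09 and 8.31 in MYTHO muscle of animals A to D. The groups overlapped, and the log2 fold change of 0.01 had a 95% interval from -0.36 to 0.38. *Pik3r4*, which holds the kinase in its complex, read 6.26, 6.80, 6.66 and 7.0 in scrmb and 7.02, 6.73, 6.51 and 6.75 in MYTHO muscle. Its log2 fold change was 0.07, with an interval from -0.37 to 0.52. The scrmb array of animal A was the lowest for *Pik3r4* and the MYTHO array of the same animal the highest.

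*Becn1* (Entrez gene 56208, chromosome 11 from 101288258 to 101302286 in GRCm38.p6) codes for the scaffold on which the kinase complexes form, and it also binds BCL2 proteins. Its log2 signals were 7.41, 7.05, 6.87 and 7.58 in scrmb and 7.68, 7.60, 7.78 and 7.73 in MYTHO muscle of animals A to D. All MYTHO arrays lay above all scrmb arrays, but the closest arrays differed by only 0.02. The scrmb mean was 7.23 ± 0.33 (SD, n = 4) and the MYTHO mean 7.70 ± 0.08 (SD, n = 4), so the scrmb arrays were spread more widely than the MYTHO arrays. Its log2 fold change of 0.47 had a standard error of 0.19, and the signal was higher in 4 of 4 animals. The limma p was 0.0320 before and 0.354 after adjustment, and the exact permutation p, two-sided, was 0.0286, as low as 4 arrays against 4 can give when animals are ignored. Swapping the legs within animals, an exact two-sided permutation test of 16 relabellings added after the data were seen, gave 0.125, which is the lowest it allows and cannot reach 0.05. The same test gave 0.125 for *Wipi1* and for *Bcas3*. *Becn1* and *Bcas3* were the 2 of the 10 genes whose groups did not overlap, both with MYTHO higher, beside 2.59% of all probe sets with MYTHO higher and 6.46% in either direction. Leaving out any of 5 arrays took the unadjusted limma p above 0.05: it was 0.0834 without scrmb B, 0.1 without scrmb C, 0.0538 without MYTHO A, 0.0650 without MYTHO C and 0.0603 without MYTHO D, with a log2 fold change from 0.35 to 0.48.

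The subunits that give the complex its site of action showed no difference beyond their spread. *Atg14*, which directs the kinase to the forming phagophore, had log2 signals of 5.85, 5.14, 6.15 and 5.32 in scrmb and of 4.94, 5.84, 6.26 and 5.25 in MYTHO muscle. It was the most variable of the 10, with standard deviations of 0.47 and 0.59, and its log2 fold change of -0.04 had the widest interval, from -0.71 to 0.63. The table holds no detection calls, so whether this signal lay above background cannot be read from it. *Uvrag*, its counterpart in the endosomal complex, read 8.56, 8.79, 8.36 and 8.44 in scrmb and 8.49, 9.01, 8.09 and 8.63 in MYTHO muscle, with a log2 fold change of 0.02 and an interval from -0.45 to 0.49. Both genes were higher in 2 of 4 animals and lower in the other 2. *Nrbf2*, a further subunit of the ATG14 complex, read 8.55, 8.72, 8.30 and 8.79 in scrmb and 8.42, 8.78, 8.61 and 8.32 in MYTHO muscle. Its log2 fold change was -0.06, with an interval from -0.46 to 0.35.

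*Ambra1* codes for a beclin 1 partner that links the kinase complex to the ULK1 kinase upstream and to ubiquitin ligases. Its log2 signals were 11.94, 11.39, 11.24 and 11.54 in scrmb and 12.07, 11.96, 11.77 and 11.30 in MYTHO muscle of animals A to D. The MYTHO leg was higher in animals A, B and C and lower in animal D, and the groups overlapped. The difference of 0.25 on the log2 scale had a standard error of 0.22, and the limma p was 0.288 before and 0.708 after adjustment.

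**Figure D2:**
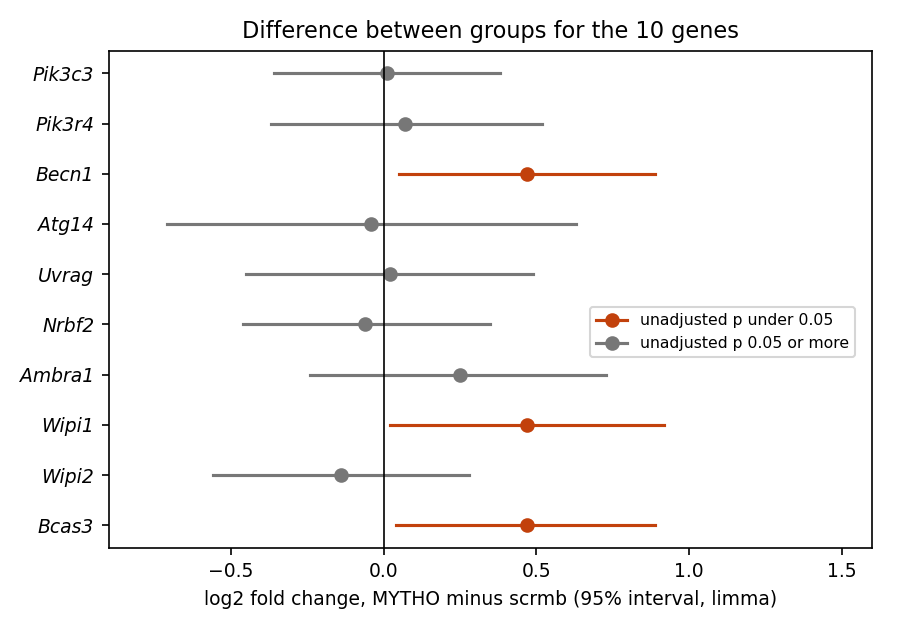
Log2 fold change, MYTHO minus scrmb, of the 10 genes (points) with its 95% interval from limma (lines), from 4 arrays per group. The intervals of *Becn1*, *Wipi1* and *Bcas3*, in orange, lie above 0, starting at 0.05, 0.02 and 0.04, and those of the other 7 span 0.

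The PI3P readers came next. *Wipi1* (Entrez gene 52639, chromosome 11 from 109573521 to 109611389 in GRCm38.p6), widely used as a marker of autophagosome formation, had log2 signals of 8.05, 7.86, 7.57 and 8.41 in scrmb and of 8.37, 8.66, 8.25 and 8.48 in MYTHO muscle. The highest scrmb array, that of animal D, lay above the MYTHO arrays of animals A and C, so the groups overlapped. The scrmb mean was 7.97 ± 0.35 (SD, n = 4) and the MYTHO mean 8.44 ± 0.17 (SD, n = 4), and the MYTHO leg was higher in 4 of 4 animals. *Wipi1* differed by 0.47 on the log2 scale (standard error 0.21), the limma p was 0.0435 before and 0.388 after adjustment, and the exact two-sided permutation p was 0.0857. Of the 8 arrays, 6 took the unadjusted limma p above 0.05 when left out: it was 0.0565 without scrmb A, 0.0933 without scrmb B, 0.135 without scrmb C, 0.0604 without MYTHO A, 0.0790 without MYTHO D and 0.107 without MYTHO B. The log2 fold change without these arrays ran from 0.33 to 0.49.

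*Wipi2*, which recruits ATG16L1 and with it the enzymes that attach LC3 to the phagophore, had log2 signals of 9.21, 9.12, 9.29 and 9.76 in scrmb and of 9.39, 9.22, 9.0 and 9.20 in MYTHO muscle. The scrmb array of animal D was the highest and the other 7 arrays lay within 9.0 to 9.39. The log2 fold change was -0.14, with an interval from -0.56 to 0.28. The difference between *Wipi1* and *Wipi2* in response was not tested.

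*Bcas3* (Entrez gene 192197, chromosome 11 from 85353110 to 85826058 in GRCm38.p6) codes for the partner of MYTHO. Its log2 signals were 7.27, 7.11, 6.95 and 7.33 in scrmb and 7.48, 8.0, 7.71 and 7.34 in MYTHO muscle of animals A to D. The groups did not overlap, although the MYTHO array of animal D exceeded the highest scrmb array, of the same animal, by only 0.01. The scrmb mean was 7.16 ± 0.17 (SD, n = 4) and the MYTHO mean 7.63 ± 0.29 (SD, n = 4). This difference of 0.47 had a standard error of 0.19, and the limma p was 0.0330 before and 0.357 after adjustment. With animal as a fixed block the unadjusted limma p was 0.0549, above the threshold, and with animal as a random block it was 0.0298. The exact two-sided permutation p was 0.0286 when animals are ignored, again the lowest possible, and the MYTHO leg was higher in 4 of 4 animals. It was also above 0.05 without some single arrays: the unadjusted limma p was 0.0668 without scrmb B, 0.0866 without scrmb C, 0.102 without MYTHO B and 0.0660 without MYTHO C, with a log2 fold change from 0.35 to 0.45.

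With all 8 arrays and no block, the 95% interval reached a 2-fold difference in either direction for none of the 10 genes. The highest upper bound was a 1.89-fold higher signal, for *Wipi1*, and the lowest bound was a ratio of 0.609, for *Atg14*. With arrays left out, some bounds passed 2-fold. On the log2 scale they were 1.11 for *Wipi1* and 1.12 for *Bcas3* without animal D, 1.02 for *Becn1* without scrmb D and -1.09 for *Atg14* without animal B. By the 2-fold criterion of the study, combined with an unadjusted p under 0.05, none of the 10 was counted, against 1.5% of all probe sets.

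The sequences before the start of *Wipi1* and *Bcas3*, chosen after their values were seen, are given here to show what lies upstream of 2 of the 3 genes with an unadjusted p under 0.05. They come from RefSeq on GRCm38.p6, the assembly of mm10, and 8 of the 10 genes matched the promoter table used here. Promoters of *Becn1* and *Pik3c3* were not analysed here. Of the 250 bases before the annotated start, the bases outside the annotated gene span are printed 5′ to 3′ on the strand of the gene. Capitals mark GGGCGG, a GC box bound by SP1-type factors, and CCAAT, a binding motif of NF-Y, each on either strand. The first stretch is chr11:109611390-109611639 on the minus strand and the second chr11:85352914-85353109 on the plus strand.
*Wipi1*: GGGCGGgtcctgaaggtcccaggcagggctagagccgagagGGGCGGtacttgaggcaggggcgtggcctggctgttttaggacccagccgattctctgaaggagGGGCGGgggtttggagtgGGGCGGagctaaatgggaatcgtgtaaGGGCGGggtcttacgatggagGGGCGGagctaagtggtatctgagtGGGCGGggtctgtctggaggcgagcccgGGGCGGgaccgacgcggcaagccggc
*Bcas3*: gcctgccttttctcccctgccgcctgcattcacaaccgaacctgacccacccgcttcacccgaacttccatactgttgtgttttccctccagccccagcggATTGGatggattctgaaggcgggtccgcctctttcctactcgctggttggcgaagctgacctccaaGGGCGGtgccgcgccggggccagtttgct
The *Wipi1* window held 8 matches to GGGCGG and none to the other motifs searched. The letters GGGCGG occurred in 32.7% of the 32851 windows of all genes, and 8 or more matches in 0.155%, a minimum set after the count in *Wipi1* was known. The *Bcas3* window held 1 match to GGGCGG and 2 to CCAAT, 1 of them within the part not printed, and CCAAT occurred in 33.8% of all windows. Members with an unadjusted p of 0.05 or more held these motifs too: GGGCGG had 2 matches in *Atg14*, 2 in *Uvrag*, 3 in *Nrbf2* and 2 in *Wipi2*. Matches to CCAAT were 3 in *Uvrag* and 1 in *Pik3r4*. Among the 8 genes with an entry, only *Nrbf2* held CACGTG, the palindromic E-box found in 6.02% of all windows. None of the 8 held the forkhead core GTAAACA, which 3.17% of all windows held. The cAMP response element TGACGTCA, in 1.55% of all windows, was also in none of the 8. The same was true of the TATA box motif TATAAA, in 12.4% of all windows. No 2 of these motifs overlapped in the printed stretches.

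The size of the difference varied between animals in the same manner for 4 of the genes. *Bcas3* was higher in the MYTHO leg by 0.21, 0.89, 0.76 and 0.01 in animals A to D. *Wipi1* differed by 0.32, 0.80, 0.68 and 0.07, *Becn1* by 0.27, 0.55, 0.91 and 0.15, and *Ambra1* by 0.13, 0.57, 0.53 and -0.24. For each of these 4 genes the largest values were in animals B and C and the smallest in animal D. The 4 were singled out after their values were seen.

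Some marker lists showed a like order of the animals, slow fibres with the largest differences. The list of *Myh7*, *Myl2*, *Myl3*, *Tnni1*, *Tnnc1*, *Tnnt1*, *Atp2a2* and *Tpm3*, proteins of slow oxidative fibres, had a mean log2 signal between 11.61 and 13.70 in scrmb and between 11.68 and 14.88 in MYTHO muscle. All 8 were higher on average, 7 of 8 with an unadjusted limma p under 0.05, beside 4.81% of all probe sets. None of the 8 passed adjustment (lowest limma adjusted p 0.280), and the groups overlapped for each of them. The difference of the list mean was 1.18, 2.52, 2.87 and 0.08 in animals A to D. In animal D, where the slow fibre mean of the legs differed by 0.08, *Becn1* differed by 0.15, *Wipi1* by 0.07, *Bcas3* by 0.01 and *Ambra1* by -0.24. With the slow fibre mean as a covariate, a fit added after the data were seen, the log2 fold change was 0.45 for *Becn1*, 0.51 for *Wipi1*, 0.31 for *Bcas3* and -0.12 for *Ambra1*, and the unadjusted limma p was 0.105, 0.0883, 0.218 and 0.589. The slow fibre mean itself differed by 1.66 between the groups, so this fit cannot fully separate it from the hairpin. Another fit, also added after the data were seen, left out scrmb A and MYTHO D, which stood apart in the slow fibre mean. The values were then 0.52, 0.48, 0.60 and 0.54, with an unadjusted limma p of 0.0538, 0.0952, 0.0243 and 0.0258. These were the highest scrmb array (11.94) and lowest MYTHO array (11.30) of *Ambra1*. MYTHO D was also the lowest MYTHO array of *Bcas3* (7.34). Leaving them out thus widened both differences by the choice of arrays, and no conclusion is drawn from these p-values. In whole muscle, a different number of cells or fibres of a type and a different amount of RNA in each cannot be told apart.

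**Figure D3:**
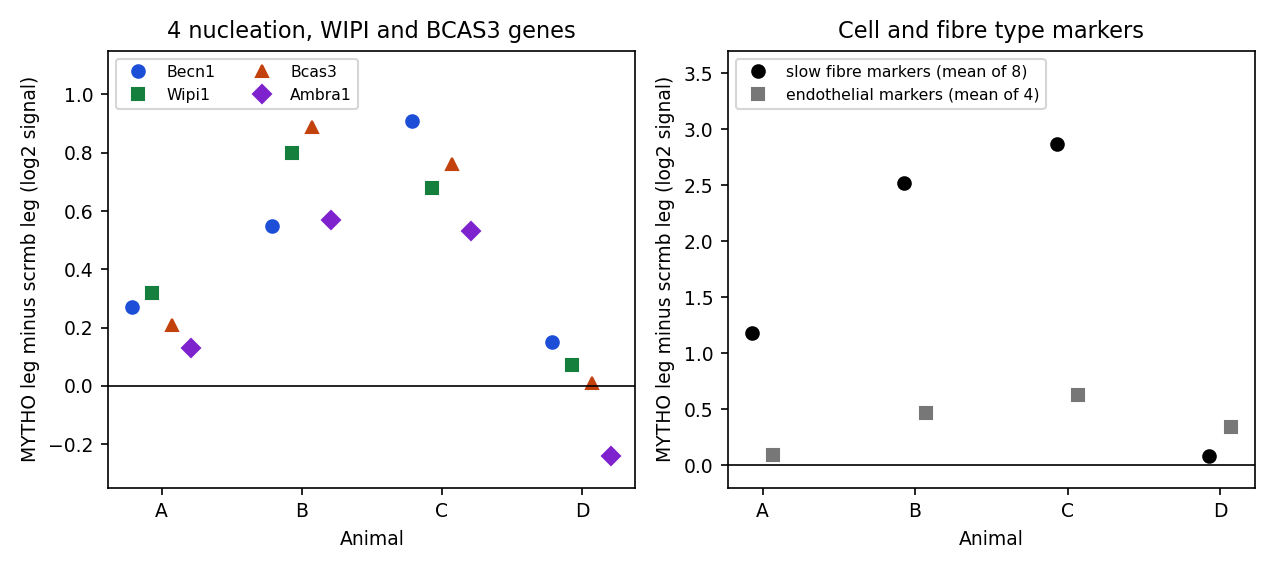
Difference in log2 signal between the MYTHO and scrmb legs of animals A to D, for *Becn1*, *Wipi1*, *Bcas3* and *Ambra1* (left) and for the mean of 8 slow fibre markers and of 4 endothelial markers (right, on another scale). The 4 genes and the slow fibre markers have their highest differences in animals B and C and their lowest in animal D, where *Ambra1* is at -0.24 and the slow fibre mean at 0.08, while the endothelial mean is lowest in animal A, at 0.09.

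Endothelial markers were set beside the groups in the same way. The mean of *Pecam1*, *Cdh5*, *Kdr* and *Tie1* ran from 10.28 to 10.63 in scrmb and from 10.72 to 10.97 in MYTHO muscle, and these ranges did not overlap. The difference of this mean was 0.09, 0.47, 0.63 and 0.34 in animals A to D, highest in B and C but lowest in A. The mean of the 6 muscle fibre markers differed by 0.08, 0.10, 0.22 and 0.05, highest in B and C and lowest in D. This order was not shared by the list. *Acta1* read 19.93, the ceiling, on every array, and *Tnnt3* was the same on every array but MYTHO B. Only *Mb* had its highest differences in B and C, and its lowest was in A. *Actn3* was lower in the MYTHO leg of B and C and higher in that of A and D. Of the 4 endothelial markers *Pecam1* had an unadjusted limma p under 0.05 (0.0369), *Cdh5*, *Kdr* and *Tie1* did not, and none passed adjustment (lowest limma adjusted p 0.366). The groups of *Pecam1* and *Cdh5* did not overlap, with MYTHO higher. Of all probe sets, 4.81% were higher and 7.58% lower at that threshold, and 2.59% and 3.87% had no overlap in these directions. Of the 6 muscle fibre markers, *Mb*, the oxygen store myoglobin, was higher by 0.55 on the log2 scale with an unadjusted limma p of 0.0245. *Des* differed by 0.30, *Ckm* by -0.03, *Tnnt3* by -0.02 and *Actn3* by -0.13. Of the 4 fibroblast markers, 1 was lower at an unadjusted limma p under 0.05 without overlap, and no marker of macrophages, T cells, adipocytes, Schwann cells or blood had an unadjusted limma p under 0.05. The group ranges of the list mean overlapped for these other cell types. They were 6.69 to 7.03 and 6.76 to 7.07 for 6 macrophage markers, 5.40 to 5.86 and 5.22 to 5.84 for 4 T cell markers, and 10.82 to 10.99 and 10.44 to 11.26 for 4 fibroblast markers. For 4 adipocyte markers they were 5.22 to 8.29 and 5.67 to 9.85, for 4 Schwann cell markers 6.35 to 8.24 and 6.30 to 6.97, and for 3 blood markers 10.98 to 12.97 and 11.80 to 13.96. The part of any of these cell types in the differences of the 10 genes was not tested.

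The pattern over arrays most like that of *Bcas3* was that of *Slc9a2*, a sodium-proton exchanger, with a Pearson r of 0.988 over the 8 arrays. *Olfr912*, an olfactory receptor, followed at 0.986 and *Ldhb*, the lactate dehydrogenase subunit of oxidative fibres and heart, at 0.978. *Ldhb* had log2 signals of 10.06, 9.59, 8.68 and 10.00 in scrmb and of 10.23, 12.03, 11.27 and 9.70 in MYTHO muscle, highest in animals B and C like *Bcas3*. These are the highest values over the whole table, from 8 arrays in 2 groups, and they are given as a description.

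Genes that act beside the 10 were read from 5 lists with 71 genes, all of them measured. Of these, 4 were higher and 2 lower at an unadjusted limma p under 0.05, beside 4.81% and 7.58% of all probe sets, and none passed adjustment. The 14 regulators of the class III kinase complex had a median log2 fold change of -0.13, with 1 higher and 1 lower. *Bcl2*, which binds beclin 1 and holds it inactive, read 7.04, 7.08, 6.50 and 6.76 in scrmb and 6.96, 8.06, 7.66 and 7.21 in MYTHO muscle, a log2 fold change of 0.63 with an unadjusted limma p of 0.0276. Its highest arrays were again the MYTHO arrays of animals B and C, and the groups overlapped. *Hmgb1*, a chromatin protein that can also bind beclin 1, read 15.96, 16.23, 16.23 and 16.02 in scrmb and 15.91, 15.35, 15.58 and 15.89 in MYTHO muscle, lower by a log2 fold change of -0.43 without overlap (unadjusted limma p 0.0414). *Sh3glb1*, which codes for the UVRAG partner endophilin B1, was named after its values were seen: its groups did not overlap, at 16.74 to 16.85 in scrmb and 16.97 to 17.10 in MYTHO muscle, with a log2 fold change of 0.25 and an unadjusted limma p of 0.133. *Rubcn*, which holds back the UVRAG complex, differed by -0.14.

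Among 17 other proteins that bind PI3P, none had an unadjusted limma p under 0.05, and the median log2 fold change was 0.03. The WIPI relatives *Wdr45* and *Wdr45b* differed by -0.06 and -0.33, with a standard error of 0.19 and 0.25. The smallest p-values belonged to *Snx3*, a sorting nexin, at 0.40 (unadjusted limma p 0.0520), and to *Zfyve9*, a FYVE domain protein, at -0.34 (unadjusted limma p 0.124). Of 20 genes for other PI3P kinases, the myotubularin phosphatases that remove PI3P and related enzymes, 1 was higher and the median was 0.03. This was *Mtmr2*, a PI3P phosphatase, at 0.44 with an unadjusted limma p of 0.0498. *Inpp4b*, a phosphatase that makes PI3P from a more phosphorylated lipid, differed by 0.53 with an unadjusted limma p of 0.0569. *Mtm1*, the phosphatase of X-linked myotubular myopathy, and *Mtmr14*, a muscle relative, differed by 0.18 and -0.36, both with overlap between the groups; these 2 and the genes *Rubcn*, *Wdr45* and *Wdr45b* were named for their roles.

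Of the 9 genes of the initiation step, which activates the kinase, none had an unadjusted limma p under 0.05 and the median was 0.13. The lipid transfer proteins *Atg2b* and *Atg2a* came closest, at -0.36 and 0.50, with an unadjusted limma p of 0.0823 and 0.102. The 11 conjugation genes, which act after PI3P and WIPI2, held 2 higher and 1 lower, with a median of 0.09. *Atg4c*, a protease that processes LC3 and its relatives, read 7.30, 7.44, 7.80 and 7.20 in scrmb and 7.85, 8.01, 7.88 and 8.18 in MYTHO muscle, a log2 fold change of 0.55 without overlap (unadjusted limma p 0.0130). Its relative *Atg4a* read 11.43, 11.66, 11.55 and 11.24 in scrmb and 10.95, 10.40, 10.97 and 11.09 in MYTHO muscle, a log2 fold change of -0.62 without overlap (unadjusted limma p 0.00911). *Atg4a* has 2 probe sets, and only the brighter was read. *Atg12*, the ubiquitin-like protein joined to ATG5, was higher by 0.37 without overlap (unadjusted limma p 0.0443). The limma adjusted p of these 3 was 0.267, 0.241 and 0.389. Groups without overlap were thus found for 3 of 71 genes with MYTHO higher and 2 of 71 with MYTHO lower, beside 2.59% and 3.87% of all probe sets.

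**Figure D4:**
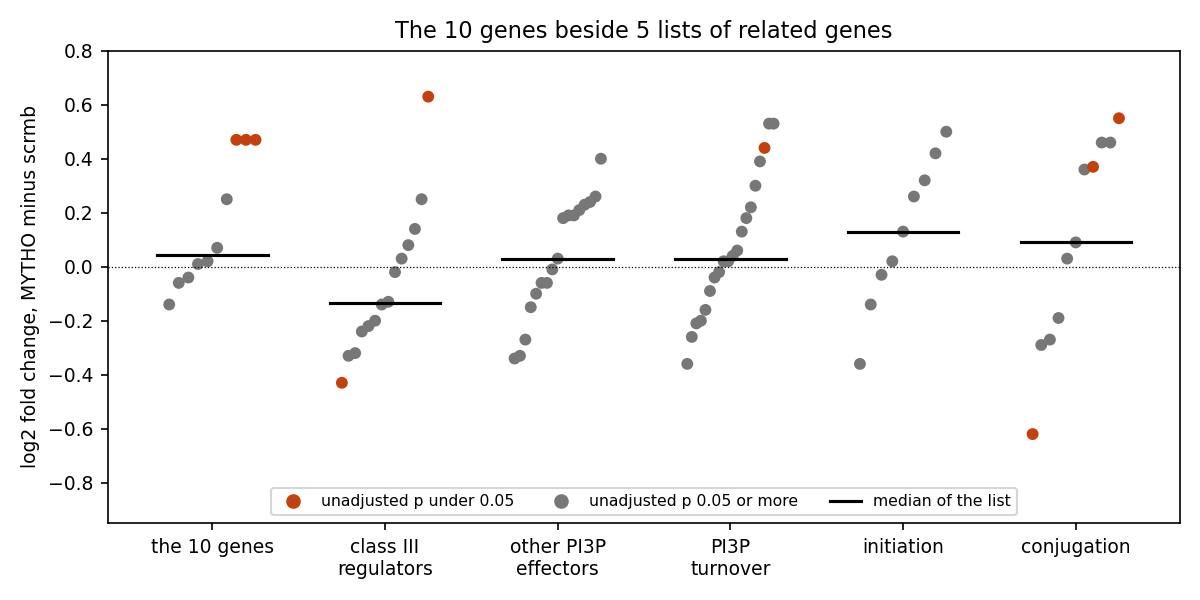
Log2 fold change, MYTHO minus scrmb, of the 10 genes and of each gene in 5 related lists, sorted within a list, with the list median as a black bar. Orange points have an unadjusted limma p under 0.05: 3 of the 10 genes, all at 0.47, and 6 of the 71 others, which lie on both sides of 0.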

How the data were processed

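Biotin-labelled total RNA of each GAS muscle was read on 1 Clariom S Mouse array. The authors deposited gene-level log2 signals made with Transcriptome Analysis Console version 4.0.1 at default settings. Per the file headers these are SST-RMA values, a method that corrects background, quantile normalizes and summarises over probes, with annotation release 36 on mm10. The highest signal is 19.93. The deposited table also holds group averages, fold changes and p-values, which were not used.

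MYTHO was compared with scrmb by limma version 3.58.1 in R version 4.3.3 (lmFit and eBayes, two-sided, no block, as the array methods of the study name an eBayes ANOVA without a pairing term, while other readouts were tested in pairs) on all 8 arrays and 22206 probe sets, with Benjamini-Hochberg adjustment over all of them. The test was checked on simulated data. Exact permutation tests used all 70 relabellings. With 4 arrays a group, array number sets the precision.

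Columns carry the hairpin and an animal number but no replicate number. Same-numbered arrays come from 1 animal, and their deviations from the group means correlated at -0.001 to 0.135. For a scrmb and a MYTHO array of different animals this was -0.167 to 0.104, a range that overlaps. Animal was tried as a block because of the animal numbers.

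The 10 genes and all lists were chosen with earlier results of these data known. Named from each other list were genes with an unadjusted p under 0.05 and no overlap, at most 4, or, where fewer than 2 met this, the 2 of smallest p, and for *Bcas3* the 3 genes of most similar pattern. A gene with several probe sets (*Atg4a*, *Pik3c2g* and *Hba-a1*, with 2 each) was read from the brightest. Rows naming several genes (*Vmp1*, *Wdfy2*) cannot separate them, and *Rubcnl* was matched by an older symbol. Promoter motifs were searched in 250 bases before each RefSeq start. For *Uvrag*, *Nrbf2*, *Wipi2* and *Bcas3* part of these bases lies within the annotated gene span, and matches there were counted too.

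Alternatives were quantile normalization, median centring, the upper 75% or 50% of probe sets by mean signal, leaving out saturated probe sets, eBayes with trend and robust, array weights, animal as a fixed or random block, 1 probe set per symbol, other thresholds (p of 0.1, adjusted p of 0.05, 1.2-fold), leaving out each array or animal, and 3 added after the data were seen.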

Additional observations from a re-analysis of the deposited data

Results flagged for a closer look

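In 40 groups of 4 arrays, covering the 10 genes, *Mytho* and 9 marker lists, 4 held 1 array whose gap to the nearest other array, divided by the range of the group, exceeded the 95% critical value of Dixon's test. Chance gives about 1 in 20. None of the 4 concerned the 10 genes. *Mytho* stood apart in the MYTHO array of animal C, at 8.80 against 8.08 to 8.20 (gap share 0.833). The slow fibre mean stood apart in scrmb animal A, at 13.70 against 11.61 to 11.94 (0.842), and in MYTHO animal D, at 11.68 against 14.43 to 14.88 (0.859). The T cell mean stood apart in scrmb animal D, at 5.40 against 5.80 to 5.86 (0.870).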

How the results depend on the processing

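*Mytho* was lower with a limma adjusted p under 0.05 in all 24 alternatives, by a log2 fold change from -3.09 to -2.66. None of the 10 genes reached a limma adjusted p under 0.05 in any alternative, where the lowest was 0.192. The number of the 10 with an unadjusted p under 0.05 was 3 higher and 0 lower. It ran from 0 to 3 higher without single arrays or animals (0 without scrmb B, scrmb C, animal B or animal C, 1 without MYTHO A, B, C or D) and was 0 with the slow fibre mean as a covariate and 0 at an adjusted p of 0.05. The lower count was 0 throughout. With the fixed replicate block by animal, 2 were higher, as *Bcas3* had an unadjusted limma p of 0.0549, and the fold change of 0.47 was unchanged.

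In the other lists, the count of 4 higher became 7 after median centring, 2 without saturated probe sets, 9 at a p of 0.1 and 0 at an adjusted p of 0.05, and ran from 1 to 7 without single arrays or animals (1 without scrmb C or MYTHO B, 7 without scrmb D, 2 without animal B). The count of 2 lower became 1 after median centring, with the fixed replicate block by animal or with the slow fibre covariate, 4 without scrmb A and MYTHO D together, and 0 at an adjusted p of 0.05, and ran from 0 to 4 without single arrays or animals (4 without scrmb A, 1 without MYTHO C or animal C, 0 without animal B).

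Signs reversed for genes that were not called. Leaving out single arrays or animals gave log2 fold changes from -0.097 to 0.087 for *Pik3c3*, from -0.157 to 0.180 for *Pik3r4*, from -0.290 to 0.247 for *Atg14*, from -0.134 to 0.173 for *Uvrag* and from -0.180 to 0.080 for *Nrbf2*. Without scrmb A and MYTHO D together it was -0.047 for *Pik3c3*, -0.067 for *Pik3r4* and 0.143 for *Atg14*. It was 0.011 for *Atg14* after quantile normalization, -0.011 for *Uvrag* with array weights and -0.123 for *Ambra1* with the slow fibre covariate. The cause was not tested. Alternatives gave 239 values for the 10 genes, of which 182 kept sign and side, 28 lost and 1 gained the threshold and 28 reversed. *Atg14* has no value in the upper 50% of probe sets. Each of the 10 genes has 1 probe set, so no second probe set could be tried. Over all probe sets, 2 were higher and 4 lower at a limma adjusted p under 0.05; this was 30 and 130 with trend and robust, 14 and 140 without scrmb D, 5 and 55 without saturated probe sets, 5 and 39 after median centring, 4 and 30 with animal as a random block, 1 and 1 with animal as a fixed block, 1 and 2 with 1 probe set per symbol, 12 and 1 without scrmb A and MYTHO D together, 0 and 1 with the slow fibre covariate, and 0 and 1 without any other single array or without animal B or C.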
